A study of Mus musculus with 6 samples.

Results

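RNA of mouse natural killer (NK) cell preparations was examined for 6 immune genes outside the classical killing programme: the cytokine genes Il13, Il9, Il17f and Csf2, the protease gene Mcpt8 and the receptor gene Kit. All 559 genes of a deposited table had an authors' Q value under 0.05 between the same 6 libraries. The table was therefore taken as selected by the authors on this contrast. The 6 genes were chosen by name from it, and all 6 names were found. Their difference between the groups is therefore given as a description with no p-value, and genes beyond the 559 were not analysed here. NK cells were purified from C57BL/6 mouse spleens and kept for 36 h with oleic acid (OA, a monounsaturated fatty acid) at 0.2 mM in 3 libraries, or without it in 3 control libraries. The labels say that the treatment was given a single time, and they name no vehicle and do not say whether the 3 libraries of a group came from separate mice or cultures. The spread between libraries may therefore be technical. The comparison asks how NK cell transcripts differ after exposure to OA.

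IL-13 and IL-9, encoded by Il13 and Il9, belong to the type 2 cytokines, which act in allergy and in defence against worms and are made mainly by type 2 helper T cells, type 2 innate lymphoid cells and mast cells. IL-17F is a type 17 cytokine that drives epithelial cells to recruit neutrophils, and Csf2 encodes GM-CSF, a growth and activation factor for macrophages, dendritic cells and granulocytes. NK cells are best known for interferon gamma, and activated mouse NK cells can also make GM-CSF and IL-13. Mcpt8 encodes mouse mast cell protease 8, a granule protease typical of basophils, and Kit encodes the receptor for stem cell factor, carried by mast cells, blood progenitors and some innate lymphoid cells.

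All 6 genes have RefSeq positions on GRCm38.p6. Il13 (chr11:53631323-53634702, minus strand) and Csf2 (chr11:54247270-54249899, minus strand) lie in the cytokine cluster of chromosome 11. Il9 is at chr13:56479277-56482257 (minus strand), Il17f at chr1:20777146-20785274 (minus strand), Mcpt8 at chr14:56082163-56085499 (minus strand) and Kit at chr5:75574987-75656722 (plus strand). The stretches just upstream of the RefSeq starts of Il13, Il9 and Il17f are printed because these cytokine genes had the largest differences between the groups. Each is read 5′ to 3′ on the strand of its gene, from RefSeq on GRCm38.p6, at chr11:53634703-53634952 for Il13, chr13:56482258-56482507 for Il9 and chr1:20784271-20784494 for Il17f. The Il17f stretch lies within the gene's full span, before the start used here, and leaves out bases that overlap an exon of another Il17f transcript. Capitals mark matches, on either strand, of the core letters GGAAA (bound by NFAT factors), GATAA (GATA factors) and TGANTCA (AP-1).
Il13: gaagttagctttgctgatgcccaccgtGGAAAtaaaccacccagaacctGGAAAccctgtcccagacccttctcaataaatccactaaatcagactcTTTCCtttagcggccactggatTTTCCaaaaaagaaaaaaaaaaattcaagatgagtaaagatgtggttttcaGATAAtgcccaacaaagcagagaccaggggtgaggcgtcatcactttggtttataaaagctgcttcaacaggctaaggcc
Il9: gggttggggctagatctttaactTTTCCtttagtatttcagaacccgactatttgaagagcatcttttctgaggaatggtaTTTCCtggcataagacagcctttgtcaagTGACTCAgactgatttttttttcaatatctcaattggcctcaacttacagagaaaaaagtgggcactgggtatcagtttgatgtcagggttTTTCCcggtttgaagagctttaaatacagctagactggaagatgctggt
Il17f: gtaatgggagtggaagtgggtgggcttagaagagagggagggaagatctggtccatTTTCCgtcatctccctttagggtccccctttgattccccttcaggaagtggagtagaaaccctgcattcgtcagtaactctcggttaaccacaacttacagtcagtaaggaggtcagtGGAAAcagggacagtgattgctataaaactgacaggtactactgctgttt

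In the 250 bases upstream of the start, the NFAT letters GGAAA were found in 5 of the 6 genes, 4 times in Il13 and 0 times in Kit. They are common letters, present in 55.6% of the 27025 promoter windows of the same length in the RefSeq table. The GATA letters GATAA stood 76 to 80 bases upstream of the Il13 start and also in the Csf2 window, 2 of 6 genes against 23.0% of all windows. The AP-1 letters TGANTCA were found in Il9 only, as TGACTCA, against 6.87% of all windows. RUNX letters TGTGGT were found in 3 genes (Il13, Il17f and Mcpt8; 14.2% of windows) and T-box letters TCACAC in Mcpt8 (12.2%), while STAT letters TTCNNNGAA (7.18%) and NF-kB letters GGGANTTTC (0.98%) were found in 0 of 6. No match of 1 motif overlapped a match of another. The RefSeq start of Csf2 lies 232 bases upstream of the GENCODE start, so its window does not cover the bases next to that start. The matches describe letters and do not show binding.

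The values are TPM, a length-corrected share of a library's transcripts, so that levels of different genes can be set side by side. TPM keeps no read numbers and the depth of the libraries is unknown. The libraries numbered 3 stood apart in both groups. Over the table, the median absolute difference in log2(TPM + 1) was 0.0714 for the OA libraries numbered 1 and 2, while OA replicate 3 differed from them by 0.201 and 0.143. For the control libraries numbered 1 and 2 it was 0.0456, while control replicate 3 differed from them by 0.125 and 0.139. All 6 genes were lowest in OA replicate 3 and highest in control replicate 3, an order shared by 237 (87.1%) of the 272 listed genes that were lower in OA in the authors' deposited table.

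The type 2 cytokine genes were lower with OA, and Il9 differed most. Il9, whose product is a growth factor for mast cells, stood at 30.19, 22.81 and 8.71 TPM in OA replicates 1, 2 and 3 and at 54.94, 49.70 and 72.72 TPM in control replicates 1, 2 and 3. The groups did not overlap, and OA replicate 3 was far below the other OA libraries. The OA mean was 34.8% of the control mean, and in log2(TPM + 1) the difference was −1.62, the most negative of the 559 genes. Without replicate 3 of each group the OA mean was 50.6% of the control mean. Il13 stood at 185.93, 162.49 and 150.03 TPM in the OA libraries and at 230.29, 219.66 and 282.01 TPM in the control libraries. Its groups did not overlap either, and it had the highest level of the 6 genes in every library. The OA mean was 68.1% of the control mean (difference −0.55), or 77.4% without replicate 3 of each group.

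The type 17 cytokine gene Il17f was lower too, next after Il9 among the 6 genes. It stood at 46.69, 43.27 and 33.75 TPM in the OA libraries and at 65.40, 68.07 and 95.02 TPM in the control libraries. Control replicate 3 was well above the other controls, and the lowest control library was 18.7 TPM above the highest OA library. The OA mean was 54.1% of the control mean (difference −0.86, the seventh most negative in the table), and 67.4% without replicate 3 of each group. Il17a, whose product pairs with IL-17F, was not analysed here.

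Csf2, the GM-CSF gene, was lower by a smaller amount. It stood at 164.18, 156.56 and 137.59 TPM in the OA libraries and at 189.57, 194.19 and 218.87 TPM in the control libraries, with no overlap. The OA mean was 76.1% of the control mean (difference −0.39), and 83.6% without replicate 3 of each group. Summed, the 4 cytokine genes came to 427, 385 and 330 TPM in the OA libraries, against 540, 532 and 669 TPM in the control libraries.

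The basophil protease gene and the stem cell factor receptor gene were lower as well, Kit least of the 6. Mcpt8 stood at 73.03, 71.42 and 59.70 TPM in the OA libraries and at 88.78, 91.34 and 95.80 TPM in the control libraries. The 3 control libraries lay close together, and the OA mean was 74.0% of the control mean (difference −0.43), or 80.2% without replicate 3 of each group. Kit stood at 103.54, 105.59 and 91.05 TPM in the OA libraries and at 113.29, 114.52 and 122.70 TPM in the control libraries. The highest OA library was 7.70 TPM below the lowest control library, the OA mean was 85.6% of the control mean (difference −0.22), and it was 91.8% without replicate 3 of each group. In these bulk samples, fewer cells of a type and less RNA per cell cannot be told apart.

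**Figure D1:**
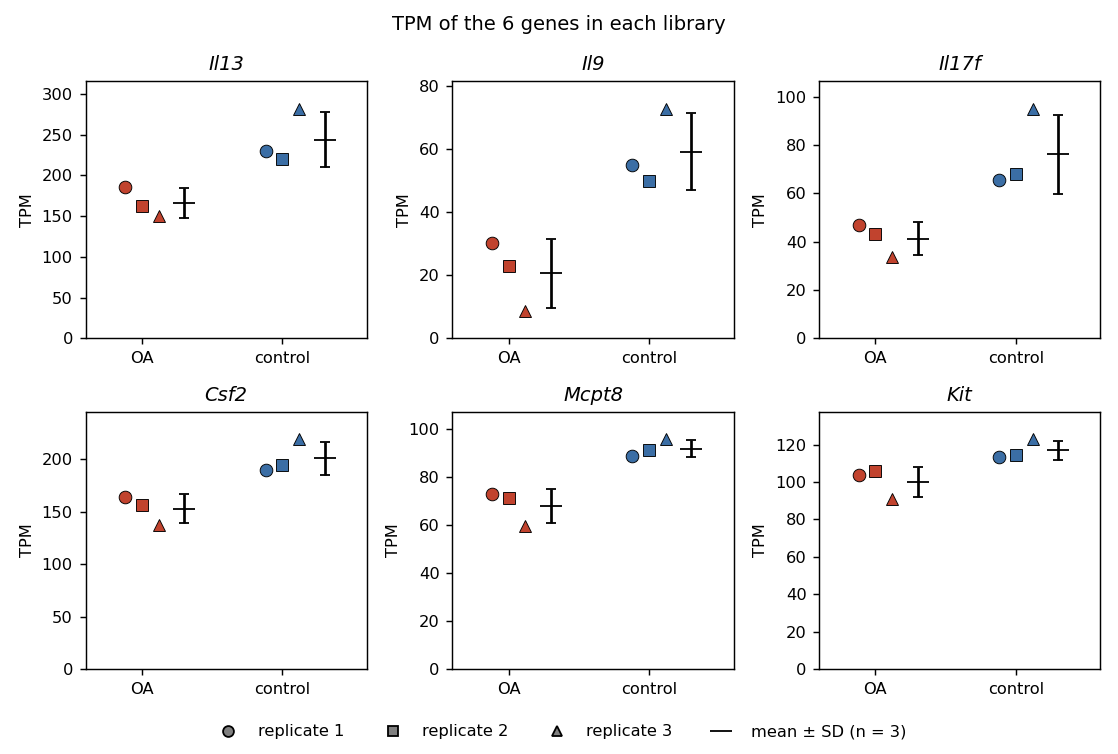
TPM of each of the 6 genes (vertical axes, from 0) in the OA and control libraries, with a symbol for each replicate number and the mean ± SD over 3 libraries beside them. In all 6 panels every OA library lies below every control library, with OA replicate 3 lowest and control replicate 3 highest.

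The order of the levels was the same in 6 of 6 libraries: Il13, Csf2, Kit, Mcpt8, Il17f and Il9, from high to low. In OA the means were 166 ± 18.2, 153 ± 13.7, 100.1 ± 7.87, 68.05 ± 7.28, 41.2 ± 6.71 and 20.6 ± 10.9 TPM in that order (SD, n = 3 libraries). In control they were 244 ± 33.4, 201 ± 15.8, 116.8 ± 5.11, 92.0 ± 3.55, 76.2 ± 16.4 and 59.1 ± 12.1 TPM. In OA the ranges of Il13 and Csf2 overlapped and the other neighbours in the order were apart. In control, Il17f overlapped both Mcpt8 and Il9. Averaged over all libraries, Il13 was the 136th and Il9 the 366th most abundant of the 559 listed genes, so none of the 6 was at the bottom of the scale, and no filter on low values was used.

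The spread between libraries of 1 group differed among the genes. The pooled SD of log2(TPM + 1) within groups was 0.0923 for Kit, 0.118 for Mcpt8, 0.121 for Csf2, 0.174 for Il13, 0.267 for Il17f and 0.654 for Il9. Ranked from the steadiest gene of the table, these were places 202, 281, 299, 412, 468 and 502 of 559. The genes followed the same order by spread as by difference except that Csf2 and Mcpt8 changed places. The difference between the group means was between 2.42 (Kit) and 3.69 (Mcpt8) times the spread. Within the OA group alone, the highest library exceeded the lowest 3.47-fold for Il9 and 1.16-fold for Kit.

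In the authors' deposited table, which supplied the values that chose the genes, the log2 fold changes of OA over control were −1.52 for Il9, −0.88 for Il17f, −0.55 for Il13, −0.43 for Mcpt8, −0.39 for Csf2 and −0.22 for Kit. Their Q values in the authors' deposited table were between 8.87e-06 (Il13 and Il17f) and 0.00745 (Kit), against a largest Q of 0.0499 among all listed genes. Only 5 listed genes had an authors' log2 fold change below −1, Il9 among them. By the authors' value Il9 ranked 2nd and Il17f 8th from the most negative of the 559 genes. In limma on log2(TPM + 1) across the 559 genes, 6 of 6 were called lower at a Benjamini-Hochberg adjusted p under 0.05, beside 40.1% of all listed genes called lower and 36.0% called higher. Groups did not overlap for 6 of 6, beside 48.5% of listed genes with every OA library below every control library. Since the same contrast chose the genes, nothing is read from these counts. The limma count of the 6 was 0 without OA replicate 2 (6 at an unadjusted p under 0.05), 0 without control replicate 1 (5 unadjusted), 0 without control replicate 2 (5 unadjusted) and 1 without control replicate 3 (4 unadjusted). It was 5 without OA replicate 1 and 5 without OA replicate 3.

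Ratios within a library show which of the 6 genes differed by more than another. Il9 per Mcpt8 was 0.413, 0.319 and 0.146 in the OA libraries and 0.619, 0.544 and 0.759 in the control libraries, without overlap. Il17f per Mcpt8 was 0.639, 0.606 and 0.565 in the OA libraries and 0.737, 0.745 and 0.992 in the control libraries, again without overlap. The level of these 2 cytokine genes thus differed by a larger ratio than that of Mcpt8.

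For Il13 and Csf2 the ratio to Mcpt8 overlapped between the groups. Il13 per Mcpt8 was 2.55, 2.28 and 2.51 in the OA libraries and 2.59, 2.40 and 2.94 in the control libraries. Csf2 per Mcpt8 was 2.25, 2.19 and 2.30 in the OA libraries and 2.14, 2.13 and 2.28 in the control libraries. Kit per Mcpt8 was higher with OA, at 1.42, 1.48 and 1.53 in the OA libraries and 1.28, 1.25 and 1.28 in the control libraries.

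Set against Ncr1, which encodes the NK receptor NKp46, Il13 and Mcpt8 again overlapped. Il13 per Ncr1 was 1.77, 1.78 and 1.90 in the OA libraries and 1.80, 1.74 and 2.02 in the control libraries, and Mcpt8 per Ncr1 was 0.696, 0.781 and 0.755 in the OA libraries and 0.693, 0.724 and 0.685 in the control libraries. Kit per Ncr1 was higher with OA without overlap, with means of 1.10 in OA and 0.890 in control. Il13 per Ifng, the interferon gamma gene, was also higher with OA, at 0.178, 0.178 and 0.220 in the OA libraries and 0.161, 0.165 and 0.158 in the control libraries. The ratios use the contrast that chose the genes and were not tested.

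**Figure D2:**
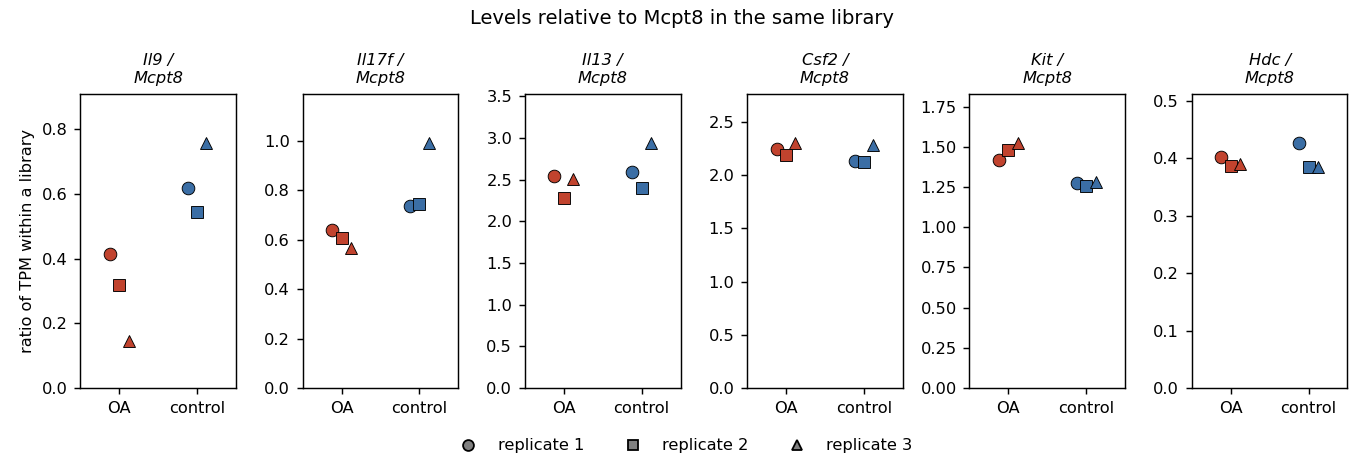
Ratio of the TPM of Il9, Il17f, Il13, Csf2, Kit and Hdc to that of Mcpt8 in the same library (vertical axes, from 0), for the 3 OA and 3 control libraries with a symbol for each replicate number. The OA libraries lie below the control libraries for Il9 and Il17f and above them for Kit, and the groups overlap for Il13, Csf2 and Hdc.

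For each gene, the listed genes with the most similar profile over the 6 libraries were found by the root mean square difference of log2(TPM + 1), each gene centred on its own mean, among 546 named genes. All profiles share the 6 libraries and the authors' selection, and likeness is given with no test. This measure grows with the size of a gene's own differences between libraries, so its values cannot be compared among the 6 genes. Il13 was closest to the granzyme gene Gzmb (0.0508), followed by Ly6i (0.0600) and the lectin-like receptor gene Klri2 (0.0610). Il17f was closest to Calhm6 (0.0397), the inducible nitric oxide synthase gene Nos2 (0.0562) and Ifng (0.0851). Csf2 was close to Gprin3 (0.0123) and the guanylate-binding protein gene Gbp9 (0.0267).

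Mcpt8 was closest to the sugar transporter gene Slc2a6 (0.0211), the complement factor B gene Cfb (0.0234) and Avil (0.0248). Kit was closest to Myc (0.00983), the granzyme B inhibitor gene Serpinb9 (0.0130) and the xanthine dehydrogenase gene Xdh (0.0199). For Il9, which differed most, the interferon gamma-induced chemokine gene Cxcl9 was nearest at 0.355, followed by Unc5c (0.460) and Nos2 (0.490). Cxcl9 stood at 11.70, 8.99 and 5.73 TPM in the OA libraries and at 16.86, 16.90 and 27.69 TPM in the control libraries.

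**Figure D3:**
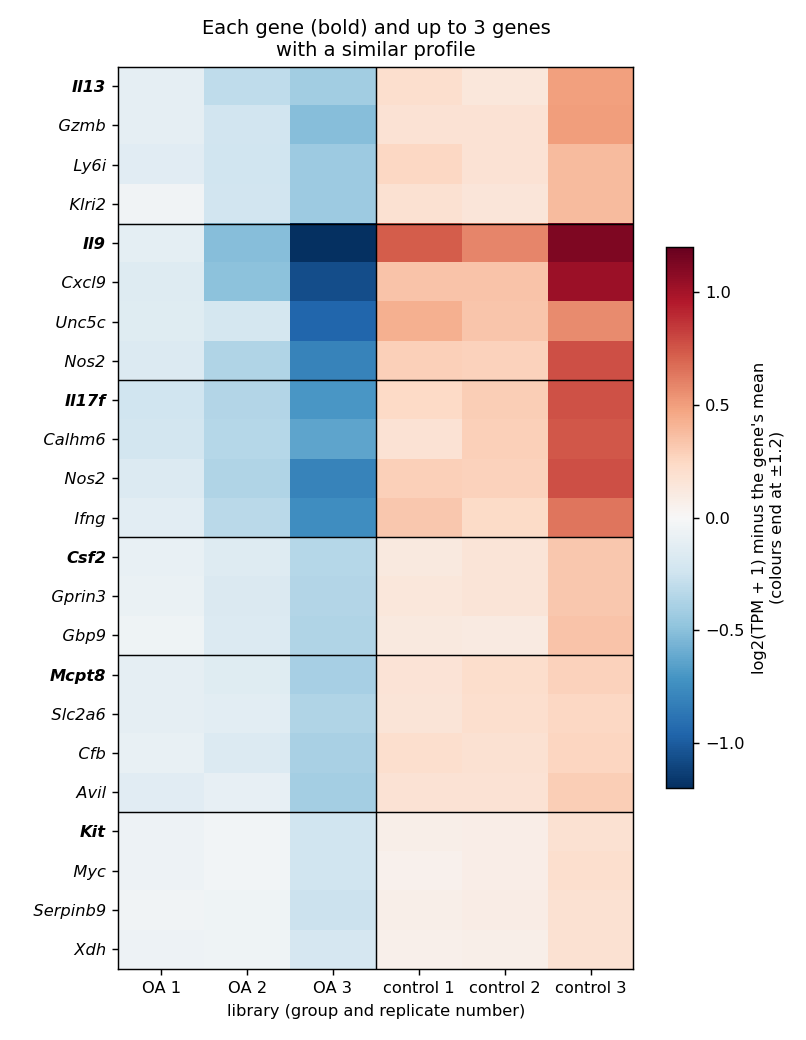
Log2(TPM + 1) minus the gene's mean over the 6 libraries (colour, red above and blue below the mean, ending at ±1.2) for the 6 genes in bold and up to 3 of the most similar listed genes under each, with OA libraries left of control libraries. The OA columns are blue and the control columns red throughout, deepest for Il9 in OA replicate 3 and pale for Kit.

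Neighbouring genes on the chromosome were looked up within 1 Mb of each gene, a window chosen after the values were seen. Of 26 other protein-coding RefSeq genes around Il13, 2 were listed, Csf2 itself at 612.6 kb and, between them, Irf1 (chr11:53770014-53778374). Irf1, a transcription factor gene induced by interferon gamma, stood at 407, 386 and 353 TPM in the OA libraries and at 453, 448 and 499 TPM in the control libraries. Around Csf2 4 of 36 were listed, which adds Anxa6 and Slc36a2. Anxa6, an annexin gene, stood at 227, 218 and 205 TPM in the OA libraries and at 260.3, 258 and 269 TPM in the control libraries. Slc36a2, an amino acid transporter gene, went the other way, at 0.15, 0.10 and 1.21 TPM in the OA libraries and listed at 0 in all 3 control libraries, and did not pass in limma (adjusted p = 0.151). Around Mcpt8, which lies in the cluster of granule protease genes on chromosome 14, 3 of 64 were listed: the granzyme genes Gzmc at 145.9 kb and Gzmb at 173.3 kb, and the proteasome activator gene Psme2. Gzmb stood at 1176, 1080 and 892 TPM in the OA libraries and at 1433, 1430 and 1791 TPM in the control libraries. Around Il9, Il17f and Kit 0 of 26, 0 of 12 and 0 of 13 genes were listed. The share of listed genes in windows elsewhere was not computed. The Il13 and Csf2 windows also overlap and both hold Irf1, so nothing is read from these counts.

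Other genes of the pathways went in both directions. The lists held 135 further genes of the type 2, type 17, GM-CSF and KIT pathways and of the factors that switch cytokine genes on, of which 27 were in the table. Limma called 10 lower and 14 higher and left 3 uncalled, with a median difference of 0.25, against 0.14 for all listed genes (40.1% lower and 36.0% higher). The count of 24 called was 0 without OA replicate 2 (20 at an unadjusted p under 0.05), 0 without control replicate 1 (20 unadjusted), 10 without control replicate 2 and 13 without control replicate 3. With libraries scaled to equal medians 3 fell and 13 rose. These listed genes too had been selected by the authors on the same libraries, so an adjusted p given for any of them is a description.

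Of 38 further type 2 genes, 6 were listed, of which 3 fell and 2 rose. Il4 and Il5, which lie with Il13 in the cluster of chromosome 11, the factor gene Gata3 and the IL-33 receptor gene Il1rl1 were not analysed here. Ccl24, an eosinophil-attracting chemokine gene, fell to 11.1 ± 0.847 TPM in OA, against 23.7 ± 7.91 TPM in control (SD, n = 3 each; difference −0.98, SE 0.243, adjusted p = 0.0282, limma). The other direction was taken by Arg1, which encodes arginase 1 and is a type 2 response gene of macrophages and innate lymphoid cells, at 176 ± 23.2 TPM in OA and 60.8 ± 26.4 TPM in control (difference 1.62, SE 0.383, adjusted p = 0.0274, limma). Il17rb, the IL-25 receptor gene, rose to 18.4 ± 2.34 TPM in OA, against 11.9 ± 2.90 TPM in control. The cytokine signal inhibitors Socs1 and Cish fell by 0.26 and by 0.19 in log2(TPM + 1), and Il2rg, the receptor chain shared with IL-9, did not pass the test.

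Of 39 further type 17 genes, 10 were listed, of which 8 rose and 1 fell. The risers were mostly genes that IL-17 is known to induce in other cells or that act upstream of it. Cxcl1, a neutrophil-attracting chemokine gene, stood at 598 ± 38.7 TPM in OA and 268 ± 96.4 TPM in control (difference 1.23, SE 0.303, adjusted p = 0.0282, limma). Cxcl2 rose by 0.97, the granulocyte growth factor gene Csf3 by 0.78 and Cxcl5 by 0.44. Il12rb1, a receptor chain for IL-12 and IL-23, fell to 145 ± 10.3 TPM in OA, against 185 ± 12.9 TPM in control. Il22 and Il23r were not analysed here.

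The GM-CSF and KIT lists were small. Of 18 further genes of the GM-CSF, IL-3 and IL-5 pathway, 3 were listed: Csf3 rose, and Pim2 (difference −0.49, a kinase gene induced by cytokines) and Cish fell, while the receptor genes Csf2ra and Csf2rb were not analysed here. Of 20 further KIT pathway genes, 3 were listed and 3 fell, all by little: Socs1, the Src family kinase gene Fyn (difference −0.24) and Pik3cd (difference −0.23). The ligand gene Kitl was not analysed here. Of 34 factors that activate cytokine genes, 8 were listed. The immediate early genes Fos (difference 0.52), Nr4a1 (0.42), Egr2 (0.40) and Egr1 (0.29) rose, whereas Eomes (−0.37), Myc (−0.22) and Jund fell and Junb did not pass.

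**Figure D4:**
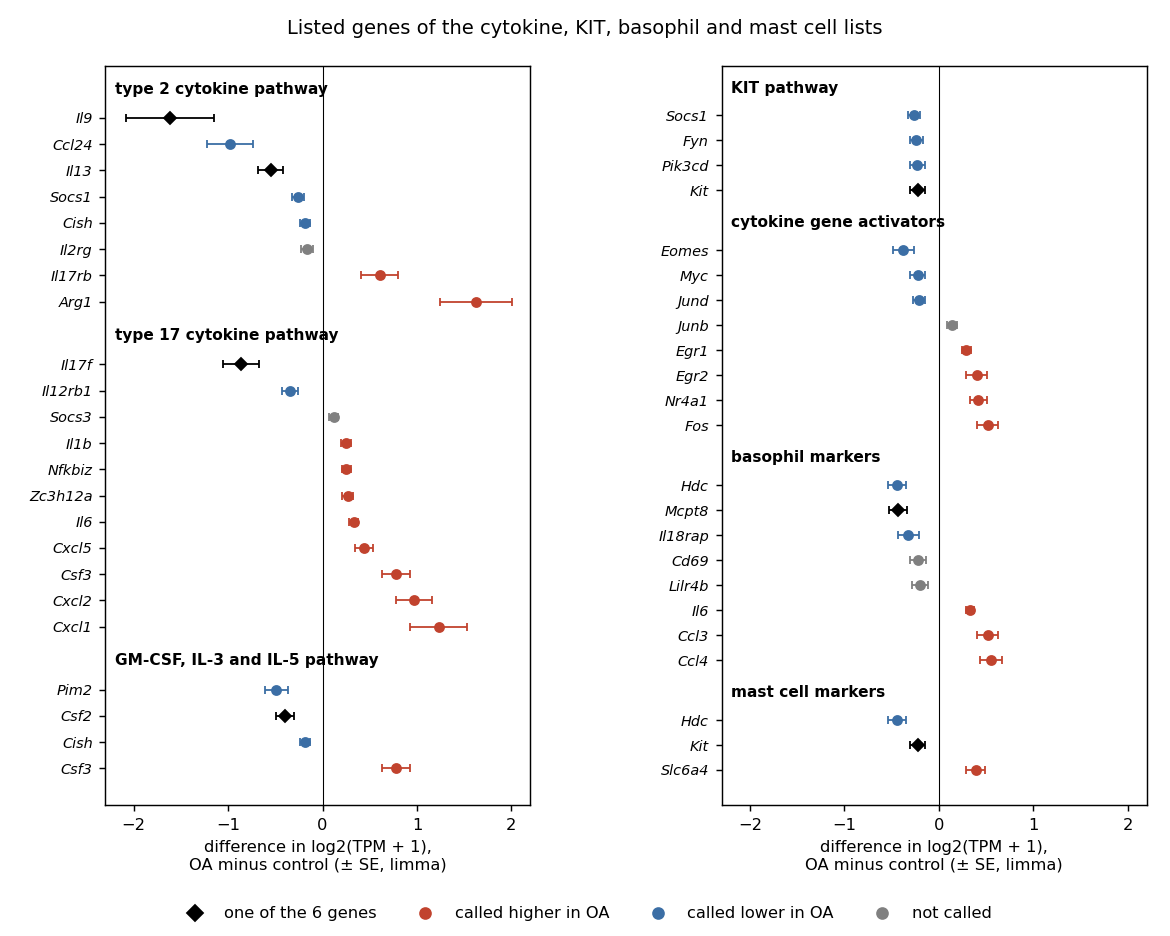
Difference in log2(TPM + 1), OA minus control, with its SE from limma (horizontal axes), for every listed gene of the 5 pathway lists and of the basophil and mast cell marker lists, coloured by the limma call. The 6 genes (black diamonds) lie left of 0, while most of the type 17 list lies right of it.

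Further genes of basophils and mast cells were few in the table and mixed in direction. Of 47 such markers beside Mcpt8 and Kit, 8 were listed: limma called 2 lower and 4 higher and left 2 uncalled, with a median difference of 0.07. The count of 6 called was 0 without OA replicate 2 (6 at an unadjusted p under 0.05), 0 without control replicate 1 (7 unadjusted), 3 without control replicate 2 and 3 without control replicate 3. With libraries scaled to equal medians 1 fell and 4 rose. Hdc, which encodes the enzyme that makes histamine and is high in basophils and mast cells, fell. It stood at 29.41, 27.56 and 23.31 TPM in the OA libraries and at 37.91, 35.13 and 36.83 TPM in the control libraries (difference −0.44, SE 0.097, adjusted p = 0.026, limma). The authors had selected Hdc on the same libraries, so this adjusted p is a description too. Hdc per Mcpt8 overlapped between the groups, at 0.403, 0.386 and 0.390 in the OA libraries and 0.427, 0.385 and 0.384 in the control libraries.

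Of these 8 markers limma called 4 higher and 2 lower, beside 36.0% higher and 40.1% lower over all listed genes. By sign alone, 4 lay above 0 and 4 below. Ccl4 and Ccl3, chemokine genes also expressed by macrophages and NK cells, rose by 0.55 and by 0.52, and Il6 and the serotonin transporter gene Slc6a4 rose by 0.33 and by 0.39. Il18rap, a chain of the IL-18 receptor that NK cells also carry, fell by 0.32. Cd69 and Lilr4b were left uncalled. The basophil genes Prss34, Fcer1a, Ms4a2 and Gata2 and the mast cell genes Cpa3, Cma1, Mcpt4 and Tpsb2, which define these cells, were not analysed here.

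Markers of other cells also differed between the same libraries. Of 165 such genes beside the 6, 41 were listed: 23 lower and 17 higher in limma, and 1 uncalled. Over all listed genes 40.1% were called lower and 36.0% higher. With libraries scaled to equal medians 14 fell and 14 rose. The count of 40 called was 0 without OA replicate 2 (34 at an unadjusted p under 0.05), 0 without control replicate 1 (34 unadjusted), 11 without control replicate 2 and 14 without control replicate 3. Of 22 NK cell markers 12 were listed and 12 fell, with a summed level of 3848 to 4897 TPM in OA and 5842 to 6823 TPM in control. Gzma, Gzmb and Ncr1 differed most, and Ncr1 averaged 91.8 ± 12.9 TPM in OA and 131 ± 7.42 TPM in control. Transcripts of this defining NK receptor were thus present in all 6 libraries, which does not show what share of the cells were NK cells.

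A minority of the innate lymphoid and T cell markers were analysed here, all of them genes selected by the authors on these libraries. Of 21 markers of type 2 innate lymphoid cells beside Il13, 5 were listed and summed to 1130 to 1316 TPM in OA and 1431 to 1487 TPM in control. Il2ra was among 3 that fell, whereas Arg1 and Il17rb rose. Of 18 markers of type 3 innate lymphoid and Th17 cells, 5 were listed. They summed to 765 to 933 TPM in OA and 1100 to 1165 TPM in control. Of these, 4 fell, among them Ncr1, which is counted with the NK cell markers too, whereas Cxcr5 rose. Of 24 T cell markers Cd28 and Icos were listed and fell, summing to 194 to 240 TPM in OA and 259 to 291 TPM in control. Icos is also counted with the type 2 innate lymphoid cell markers. The 1 listed progenitor marker, Ly6a, also fell, with 1430 to 1625 TPM in OA and 1895 to 2045 TPM in control.

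The same limit holds for the myeloid, neutrophil and B cell markers. Of 28 myeloid markers 10 were listed, of which 7 rose and 3 fell, and they summed to 5840 to 6137 TPM in OA and 4798 to 5263 TPM in control. Il1b, which rose, made up most of this sum in every library. Arg1 was also among those that rose, and Nos2 and Ly6c2 among those that fell. Of 22 neutrophil and eosinophil markers Mmp9 and Mmp8 were listed and rose, summing to 548 to 603 TPM in OA and 347 to 462 TPM in control. Of 22 B cell markers 7 were listed and 6 rose, with 555 to 648 TPM in OA and 360 to 446 TPM in control. No listed marker of these lists was at 0 in any library. The part of these cell markers in the differences of Il13, Il9, Il17f, Csf2, Mcpt8 and Kit was not tested.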

How the data were processed

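RNA of 3 OA and 3 control libraries was compared. The submitters' processing notes list Bowtie2, RSEM 1.3.1, DESeq2 1.4.5 and mm10 without saying what each did; the annotation and filters are not given in the sources used here. Per the file headers, the deposited table holds the authors' TPM for each library, their log2 fold change (OA over control), their P value and their Q value. Every listed gene had Q under 0.05. The depth of the libraries is unknown.

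Samples were grouped by the treatment label and columns matched by sample title. All 559 genes entered a limma fit (version 3.58.1, R 4.3.3) of log2(TPM + 1), unfiltered and without covariates (two-sided, Benjamini-Hochberg adjusted p under 0.05). The fit was also run on simulated data with independent noise for each gene and 200 changed genes. The deposited genes were selected on this contrast and share deviations between libraries, so the simulation does not show how the fit performs on them. The pseudocount makes differences of low genes too small. Python 3.11.15, numpy 2.4.6, pandas 2.3.3 and matplotlib 3.10.9 were used for tables and plots. The 6 genes and the 15 gene lists (313 symbols) were chosen with earlier results of these data known. The rule for named genes took the 6 genes, the 5 largest differences of each pathway, basophil and mast cell list, up to 3 of each other list, and the 3 most similar profiles. Other listed members of the lists are given by name or only within a count. Of the similar profiles 1, and of the 8 motifs searched 1, are not reported here. The chromosomal neighbours Irf1, Gzmc, Psme2, Anxa6 and Slc36a2 are outside it and were added after their values were seen. Of the 559 genes, 556 matched RefSeq (GRCm38.p6) by gene identifier.

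Alternatives tried were other pseudocounts, a level filter, a stricter threshold, scaling to equal medians, a trended robust prior, a block for the replicate number, and libraries left out.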

Additional observations from a re-analysis of the deposited data

How the results depend on the processing

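The 6 genes were lower in OA in 60 of 60 recomputed differences (other pseudocounts, equal medians, libraries left out). As the groups do not overlap, neither the pseudocount nor leaving out libraries could have changed the direction. Scaling to equal medians shifted the median difference of the listed genes by only −0.0101, too little to reverse any of the 6. The shared direction is therefore no check. Of the 60 differences, 55 moved by less than 1 SD between libraries. That SD comes from the same libraries, and leaving out 1 library of 3 cannot move a difference by that much. Most of the 55 were thus fixed in advance. The 5 that moved further came from leaving replicate 3 out of each group: Il13 −0.37, Il17f −0.56, Csf2 −0.26, Mcpt8 −0.31 and Kit −0.12. Il9 was then −0.97.

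Counts of limma calls depended on the setting. At an adjusted p under 0.01, 1 of 425 listed genes was still called, 0 of the 6 genes, 0 pathway genes, 0 basophil and mast cell markers and 0 markers of other cells (465, 6, 26, 7 and 40 at an unadjusted p under 0.05). With libraries scaled to equal medians 244 listed genes were called (162 higher and 82 lower, 66.4% higher, against 201 and 224, 47.3%, with TPM as deposited). Leaving out each library in turn gave 0 to 364 calls for listed genes, 0 to 5 for the 6 genes, 0 to 21 for pathway genes, 0 to 6 for basophil and mast cell markers and 0 to 35 for markers of other cells. The cause was not tested.

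With the replicate number as a replicate block, limma called 0 genes of the table (238 at an unadjusted p under 0.05), 0 of the 6 genes (5 unadjusted), 0 pathway genes (16), 0 basophil and mast cell markers (5) and 0 markers of other cells (29). Deviations from the group means correlated across genes at 0.33, −0.11 and −0.08 between libraries numbered 1, 2 and 3, so the numbers were not taken to pair the libraries. TPM keeps no counts, so counting error could not be given, and 3 libraries a group limit the precision.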
